A study of Caenorhabditis elegans with 33 samples.

Results

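Astacins are secreted zinc metalloproteases. Every gene with a symbol of the form nas- and a number was taken from the deposited tables, together with hch-1, dpy-31 and toh-1, which gave 37 astacin genes among 18811 gene symbols. This rule uses symbols and no measured value. RNA of whole Caenorhabditis elegans of the wild-type strain N2 was sequenced in 33 libraries, 3 for each of 11 bacterial diets. The diets were the bacterial mutants torY, yccU, crl, iaaA, purH, ycdC, ycgJ, yghZ, yjgU and ypdF, and BW25113, a laboratory strain of Escherichia coli, as the control. The mutant named yjgU in the sample titles is yigU in its treatment label, so its identity is uncertain. All groups held synchronized adults on the same host background. The sources used here give neither the adult day and animal number nor where the replicates came from. The p-values therefore speak only of the spread among these libraries, and that spread may be technical.

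An astacin protease is made as an inactive proenzyme that is cut to release its catalytic domain, and many members carry further domains outside it. In C. elegans the family is large, and its known members act mainly on extracellular matrix: they open the eggshell, trim procollagens, free the animal from its old cuticle at each molt and shape the lining of the pharynx. Many other members have no role known from a mutant animal.

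Totals were 20.5 to 22.7 M expected counts per library (M, 1e6), of which the astacin genes together took only 1121 to 4661 counts, so most members were measured on few reads. Across the 14696 genes that passed a filter on low counts, Pearson r of log2 CPM between replicates lay between 0.81 and 0.987, where genes do not count as independent replicates. The library purH replicate 1 stood apart, at 0.81 and 0.861 with its replicates. In yccU, replicate 2 had 0.934 and 0.947 with the others, while replicates 1 and 3 had 0.978, so the counts of calls in yccU are also given without it, a choice made after seeing the data. Between-group tests used edgeR's quasi-likelihood test on rounded expected counts, and a gene was called where its p, adjusted by Benjamini and Hochberg's method across the 14696 genes, was under 0.05. CPM below is counts per 1e6 on scaled library sizes, and it compares libraries for 1 gene. Levels of different genes are compared only in the deposited TPM, which is per transcript length. All 10 mutants were compared with the same 3 BW25113 libraries.

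Of the 37 astacin genes, 32 passed the filter. The other 5, nas-10, nas-17, nas-18, nas-19 and nas-24, held 60 counts between them in all libraries, and nas-18 was at 0 in each. Another 2 members, nas-21 and nas-23, passed only with the help of torY or yccU libraries, and neither was called by edgeR with all 33 libraries. They remain in the counts and medians of the 32 members below. In the WBcel235 annotation the family was spread over all 6 chromosomes, with 11 members on V and 9 on X. 2 small clusters lay on V: nas-18, nas-17 and nas-19 were 1198 and 527 bp apart and none passed the filter, while nas-20, nas-21 and nas-22 were 254 and 799 bp apart. Within the second cluster the levels differed widely, with medians over the libraries of 3.46 TPM for nas-20, 0.09 TPM for nas-21 and 0.41 TPM for nas-22.

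The most abundant astacin message per transcript length differed between the diets. In torY libraries nas-30 was highest with 21.4 ± 6.1 TPM, followed by toh-1 with 17.3 ± 4.9 TPM and nas-15 with 7.59 ± 3.3 TPM (SD, n = 3). The order was alike in yccU libraries, where nas-30 had 20.5 ± 11.6 TPM, toh-1 had 15.6 ± 6.5 TPM and dpy-31 had 6.65 ± 2.9 TPM (SD, n = 3). In BW25113 libraries hch-1 led with 9.59 ± 4.6 TPM, ahead of toh-1 with 5.94 ± 1.3 TPM and dpy-31 with 3.77 ± 0.71 TPM, and nas-30 was only the 7th with 2.03 ± 0.84 TPM (SD, n = 3). Among these, neighbours in the order overlapped in their ranges, except nas-15 below toh-1 in torY and dpy-31 below toh-1 in BW25113. Within single libraries, toh-1 was above nas-30 only in yccU replicate 2 and above hch-1 only in BW25113 replicate 3. The other neighbours kept their order in every library. By contrast hch-1 ranked 30 of 37 in torY and 19 in yccU, with 0.187 and 0.697 TPM. Summed over the family, the level was 68.1, 97.2 and 121 TPM in torY libraries, in ascending order, and 38.8, 111 and 117 TPM in yccU libraries, against 29.7, 38.5 and 41.7 TPM in BW25113 libraries. The lowest yccU library lay inside the range of BW25113. The libraries of the other 8 mutants spanned 28.6 TPM in purH to 98.7 TPM in ycgJ, a range that overlapped torY, yccU and BW25113. In RNA of whole animals, more or fewer cells of a type and more or less RNA per cell cannot be told apart, and this holds for each value here.

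**Figure D1:**
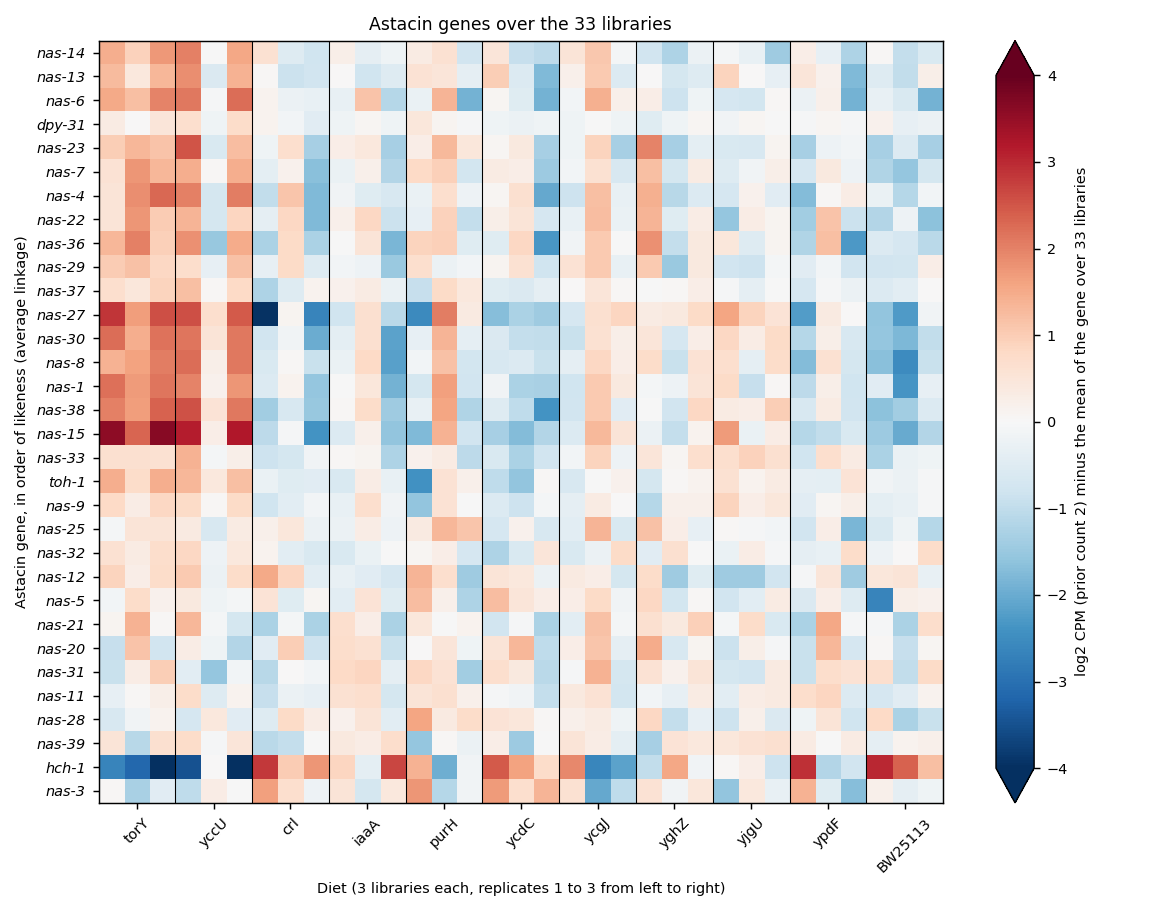
Heat map of the 32 astacin genes that passed the filter (rows, ordered by likeness) in the 33 libraries (columns, 3 per diet). Colour is log2 CPM minus the gene's mean over all libraries, red above and blue below; most rows are red in torY and in yccU replicates 1 and 3, and hch-1 is blue there.

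In torY, 9 of the 32 tested astacin genes were called, 8 higher (nas-15, nas-30, nas-8, nas-38, nas-7, nas-1, nas-27 and nas-14) and 1 lower (hch-1), and 23 were not. Over all genes tested, 14.9% were called in torY, 9.66% higher and 5.26% lower. In 20 members the 3 torY libraries all lay above the 3 BW25113 libraries and in 1, hch-1, they all lay below, where 25.5% of all genes lay above, 21.7% below and 47.3% either way. The 20 include nas-23, which passed the filter only with the help of torY or yccU libraries. At an unadjusted p under 0.05 there were 18 higher and 1 lower, where 36.5% of all genes passed. The median log2 fold change of the 32 members was 1.39, against 0.0095 for all genes. These counts leaned on single libraries: none of the members, and none of all genes, was called without BW25113 replicate 2. There were 5 without BW25113 replicate 1 (745 of all genes) and 5 without torY replicate 1 (532 genes). Without torY replicate 3 there were 3 (nas-15, nas-30 and nas-8, with 153 genes), and without torY replicate 2 there were 10 (2118 genes). Without BW25113 replicate 3 all of the 9 but nas-1 and nas-14 stayed called (578 genes). The signs of the 9 changes were the same under each of these omissions.

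In yccU, 5 of the 32 were called, all higher: nas-15, nas-30, nas-8, nas-38 and nas-7. Of all genes tested, 2.62% were called in yccU, 2.50% higher and 0.122% lower. The 3 yccU libraries lay above all BW25113 libraries in 12 members and below in 1, hch-1, where 19.2% of all genes lay above, 15.2% below and 34.4% either way. At an unadjusted p under 0.05 there were 18 higher and 1 lower, where 26.9% of all genes passed. The members' median log2 fold change was 1.25, against -0.012 for all genes. Without yccU replicate 2 the count was 13, 12 higher and 1 lower, and 2177 genes were called in all. The 12 include nas-23, which passed the filter only with the help of torY or yccU libraries. The count was 0, of the members and of all genes, when any 1 of BW25113 replicates 1, 2 and 3 or yccU replicates 1 and 3 was left out.

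Between torY and yccU, in a contrast chosen after seeing the data, no member reached even an unadjusted p under 0.05 in edgeR, and none of all genes was called (62 genes, 0.422%, were under 0.05 unadjusted). That does not show that the 2 diets act alike: for hch-1 the torY minus yccU difference was -2.04 on the log2 scale with an SE of 1.35.

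**Figure D2:**
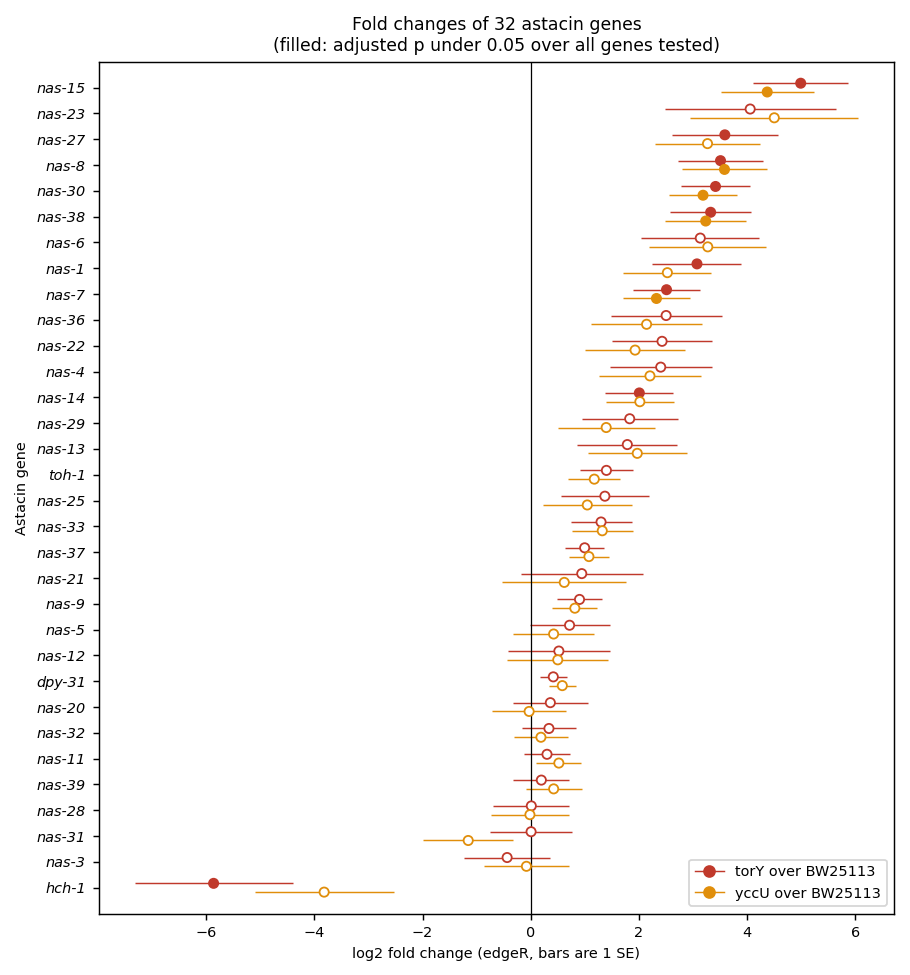
Log2 fold changes of the 32 tested astacin genes in torY and in yccU over BW25113, with bars of 1 SE. Filled points are called at an adjusted p under 0.05; in torY nas-15 is highest with 4.99 and hch-1 lowest with -5.86, and in yccU nas-23, which is not called, is highest with 4.50, nas-15 has 4.37 and hch-1 is lowest with -3.82.

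The hatching enzyme gene hch-1 (X, positions 14696411 to 14699977, minus strand, WBcel235) encodes the protease that helps the embryo leave its eggshell. It had 0.691, 0.464 and 0.175 CPM in torY libraries and 0.355, 4.89 and 0.214 CPM in yccU libraries, against 39.5, 25.1 and 11.2 CPM in BW25113 libraries. All torY libraries lay below all libraries of every diet other than yccU. The torY values rest on few reads, with 10, 12 and 4 counts in replicates 1, 2 and 3. The fitted change in torY was -5.86 (SE 1.46, edgeR adjusted p = 0.0170), or 58.3-fold lower, and was lost at adjusted p = 0.0718 without BW25113 replicate 2, 0.0502 without torY replicate 1 and 0.0811 without torY replicate 3. In yccU it was -3.82 (SE 1.29, edgeR adjusted p = 0.0748) and was not called, and without yccU replicate 2 it was -6.45 (edgeR adjusted p = 0.0181) and was called. In the 24 libraries of the other mutants hch-1 spanned 0.709 to 36.7 CPM with a median of 6.90 CPM, a wide range that reached both the torY and the BW25113 side.

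The hch-1 level varied with the embryo markers and against the sperm markers. Across the 27 libraries outside torY and yccU, Pearson r between log2 CPM of hch-1 and the mean level of 20 embryo genes was 0.913, and over all 33 it was 0.951. With the mean level of 24 sperm genes it was -0.846 over the 27 and -0.891 over all 33. These are descriptions over libraries that share diets and controls. The 20 embryo genes summed to 58.2 to 94.6 CPM in torY libraries and 62.0 to 119 CPM in yccU libraries, against 144 to 188 CPM in BW25113 libraries. In torY 8 of them were called lower and none higher, among them sdc-2 and ztf-11, and in yccU only sdc-2 was called lower. In torY 9.66% of all genes were called higher and 5.26% lower, and in yccU 2.50% and 0.122%. The list counts below stand beside the same shares. Without yccU replicate 2, 9 of the then 21 tested embryo genes fell in yccU and none rose. Of 23 embryo markers in the files, tbx-35 was at 0 in all torY libraries, tbx-35 and med-1 in all yccU libraries, and med-1 in all BW25113 libraries. Of 19 oocyte and eggshell genes, 3 fell in torY (chs-1, egg-2 and glp-1) and none was called in yccU, where chs-1 alone fell without yccU replicate 2. Of 24 sperm genes, 6 rose in torY and peel-1 alone in yccU, with sums of 3517 to 5592 CPM in torY and 3020 to 4492 CPM in yccU, against 539 to 943 CPM in BW25113. Without yccU replicate 2, 6 sperm genes rose in yccU. The part of embryos, oocytes and sperm in the level of hch-1 or of any other member was not tested.

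**Figure D3:**
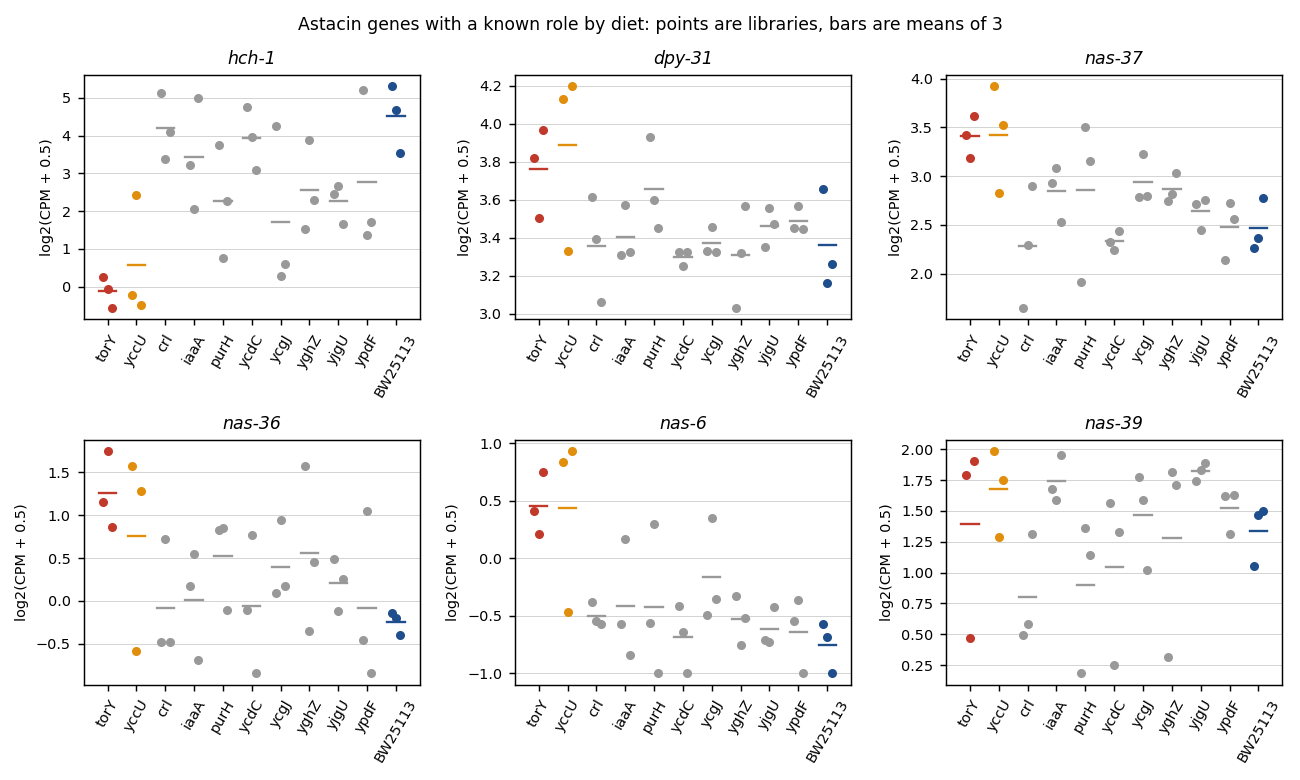
Levels of 6 astacin genes with a described role or type in the 11 diets, as log2(CPM + 0.5) per library (points) with the mean of 3 (bars); torY is red, yccU orange, BW25113 blue and the other mutants grey. The torY points of hch-1 lie below all BW25113 points, those of nas-37, nas-36 and nas-6 lie above them, and those of dpy-31 and nas-39 overlap them.

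dpy-31 (III, positions 7202206 to 7207664, plus strand) encodes the procollagen C-proteinase that trims cuticle collagens such as SQT-3. It had 13.6, 10.9 and 15.2 CPM in torY libraries and 17.0, 9.55 and 17.9 CPM in yccU libraries, against 12.1, 8.46 and 9.09 CPM in BW25113 libraries, and both mutants overlapped the control. Over all 33 libraries it stayed between 7.66 and 17.9 CPM. The log2 fold change was 0.42 in torY (SE 0.25, edgeR adjusted p = 0.213) and 0.58 in yccU (SE 0.25, edgeR adjusted p = 0.134). Without yccU replicate 2 it was 0.82 in yccU (edgeR adjusted p = 0.030) and was called.

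Other genes of procollagen maturation moved in both directions in torY: of 12 tested, 4 rose and 1 fell. The collagen prolyl hydroxylase subunit genes phy-2 and dpy-18 rose by 1.26 and 1.36 on the log2 scale, the cuticle peroxidase gene mlt-7 by 1.27 and the tetraspanin gene tsp-15 by 0.90. The collagen gene dpy-17 fell by 5.63 in torY, with 7.24 ± 4.3 CPM in torY against 358 ± 280 CPM in BW25113 (SD, n = 3 each). The gene sqt-3 had a log2 fold change of 1.15 (SE 0.87) in torY and was not called. In yccU only phy-2 was called, with 1.49, and without yccU replicate 2 phy-2, mlt-7 and dpy-18 rose and dpy-17 fell.

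nas-36 (I, positions 7527224 to 7531715, plus strand) and nas-37 (X, positions 9944844 to 9949063, minus strand) are the proteases required to shed the old cuticle at ecdysis. nas-37 had 10.2, 8.62 and 11.8 CPM in torY libraries and 14.7, 6.61 and 11.0 CPM in yccU libraries, against 4.31, 4.66 and 6.36 CPM in BW25113 libraries. Neither mutant overlapped the control, and the log2 fold changes of 1.00 in torY (SE 0.37, edgeR adjusted p = 0.0595) and 1.08 in yccU (SE 0.37, edgeR adjusted p = 0.0772) missed the threshold. Without yccU replicate 2 nas-37 was called in yccU at 1.33 (edgeR adjusted p = 0.0271). nas-36 had 1.73, 2.86 and 1.31 CPM in torY libraries and 2.49, 0.167 and 1.92 CPM in yccU libraries, against 0.408, 0.368 and 0.258 CPM in BW25113 libraries. Its torY libraries lay apart from the control and its yccU libraries did not, since yccU replicate 2 was below all of them. It was not called, with log2 fold changes of 2.50 in torY (SE 1.02, edgeR adjusted p = 0.0830) and 2.14 in yccU (SE 1.02, edgeR adjusted p = 0.178), or 2.66 without yccU replicate 2 (edgeR adjusted p = 0.0732). The 2 ecdysis genes did not track each other closely: Pearson r of log2 CPM was 0.281 over the 27 libraries outside torY and yccU and 0.499 over all 33.

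nas-38 (X, positions 558157 to 563708, plus strand), which acts on the sleep-like state that accompanies molting, was called in both mutants. It had 5.32, 4.21 and 6.84 CPM in torY libraries and 7.72, 1.89 and 5.72 CPM in yccU libraries, against 0.350, 0.429 and 0.827 CPM in BW25113 libraries. The 3 torY libraries lay above all 27 libraries outside torY and yccU, and 5 of those 27 exceeded the lowest yccU library. The log2 fold change was 3.33 in torY (SE 0.75, edgeR adjusted p = 0.0130) and 3.24 in yccU (SE 0.75, edgeR adjusted p = 0.0318). The torY call was lost without BW25113 replicate 2 or torY replicate 3, and the yccU call in each omission except that of yccU replicate 2.

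Of 29 molting cycle genes, 10 were called higher in torY and 4 in yccU, or 10 in yccU without its replicate 2, and none was called lower. Without torY replicate 3 only 3 of them rose in torY, and no gene of the embryo, oocyte, sperm, pharynx, procollagen, inhibitor and metalloprotease lists was called there. In torY they included the grl genes grl-5 and grl-15 with 4.18 and 5.33 on the log2 scale, qua-1 with 3.48 and lin-42, a timing gene that oscillates with the molts, with 2.93. Their sum was 529 to 1388 CPM in torY libraries and 209 to 1062 CPM in yccU libraries, against 264 to 472 CPM in BW25113 libraries, and the lowest yccU library fell below the control range. Among Kunitz and TIMP type protease inhibitors of the cuticle, bli-5 (also 1 of the 29) rose by 3.71 in torY and by 3.40 in yccU on the log2 scale, and mlt-11, timp-1 and cri-2 were not called. The part of molting animals in these levels was not tested.

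nas-6 (IV, positions 17486842 to 17490779, minus strand) and nas-7 (II, positions 7400545 to 7402725, minus strand) are expressed in the pharynx, and nas-6 is needed for its grinder. nas-7 had 2.97, 7.00 and 5.04 CPM in torY libraries and 5.59, 2.05 and 5.55 CPM in yccU libraries, against 0.816, 0.613 and 1.19 CPM in BW25113 libraries. It was called in both, with 2.51 in torY (SE 0.62, edgeR adjusted p = 0.0169) and 2.32 in yccU (SE 0.62, edgeR adjusted p = 0.0435), and no library of either mutant overlapped the control. The torY call was lost without BW25113 replicate 1 or 2 or torY replicate 3, and the yccU call in each omission except that of yccU replicate 2. nas-6 rested on few reads, with 0.829, 0.657 and 1.18 CPM in torY libraries and 1.29, 0.222 and 1.41 CPM in yccU libraries, against 0.175, 0.123 and 0 CPM in BW25113 libraries. Its log2 fold changes of 3.13 in torY (SE 1.09, edgeR adjusted p = 0.0504) and 3.27 in yccU (SE 1.08, edgeR adjusted p = 0.0730) missed the threshold, and without yccU replicate 2 it was called in yccU (edgeR adjusted p = 0.0285). Of 20 pharynx genes, 7 rose in torY, mainly abu genes of the pharyngeal cuticle, and none was called in yccU, or 8 without yccU replicate 2, all higher. They summed to 969 to 1689 CPM in torY libraries and 526 to 1254 CPM in yccU libraries, against 363 to 555 CPM in BW25113 libraries, and their part in the level of the 2 proteases was not tested.

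nas-39 (X, positions 16456927 to 16471333, plus strand) is the member of the BMP-1 and tolloid type, the group that in vertebrates trims procollagens and growth factor inhibitors. It had 2.97, 0.889 and 3.24 CPM in torY libraries and 3.46, 1.94 and 2.86 CPM in yccU libraries, against 1.57, 2.27 and 2.33 CPM in BW25113 libraries, with overlap in both mutants. Its log2 fold change of 0.20 in torY (SE 0.52, edgeR adjusted p = 0.798) turned to -0.00125 without torY replicate 1 and to -0.115 without torY replicate 3. In yccU it was 0.42 (SE 0.52, edgeR adjusted p = 0.592), and without yccU replicate 2 it was 0.62 (edgeR adjusted p = 0.441). Its counts were not whole in 32 libraries, which no other member showed. It overlaps the gene F38E9.1 on the same strand by 276 bp. nas-4 and nas-22 overlap C05D11.5 and T11F9.7 on the same strand by 437 and 969 bp, and their counts were whole in every library. Whether reads were split between overlapping genes was not tested.

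The largest rises were in members without a role known from mutants. nas-15 (X, positions 777721 to 780533, plus strand) had 21.9, 9.20 and 23.0 CPM in torY libraries and 16.1, 2.11 and 16.9 CPM in yccU libraries, against 0.583, 0.368 and 0.723 CPM in BW25113 libraries. The 24 libraries of the other mutants lay between 0.260 and 5.90 CPM with a median of 1.14 CPM, so all torY libraries and yccU replicates 1 and 3 were above every library outside these 2 diets. The change was 4.99 in torY (SE 0.88, edgeR adjusted p = 0.0109), or 31.8-fold, and 4.37 in yccU (SE 0.86, edgeR adjusted p = 0.0305), or 20.7-fold.

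nas-30 (I, positions 938483 to 947710, plus strand) was on average the most abundant astacin message per length in both mutants. In yccU replicate 2 toh-1 was above it, with 8.06 TPM against 7.15 TPM. The level of nas-30 was 37.2, 21.8 and 35.4 CPM in torY libraries and 34.8, 11.3 and 34.3 CPM in yccU libraries. In BW25113 libraries nas-30 had 2.62, 2.21 and 3.98 CPM. The other mutants spanned 1.72 to 20.2 CPM with a median of 6.21 CPM, below every torY library. It was 10.7-fold higher in torY (log2 3.42, SE 0.63, edgeR adjusted p = 0.0117) and 9.10-fold higher in yccU (log2 3.19, SE 0.63, edgeR adjusted p = 0.0305).

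nas-8 (IV, positions 7114899 to 7119926, plus strand) was also called in both mutants. It had 3.04, 3.56 and 4.91 CPM in torY libraries and 5.64, 1.33 and 5.13 CPM in yccU libraries, against 0.291, 0.123 and 0.568 CPM in BW25113 libraries. The highest of the other mutants' libraries had 2.61 CPM, below all torY libraries. Its log2 fold change was 3.51 in torY (SE 0.78, edgeR adjusted p = 0.0121) and 3.58 in yccU (SE 0.78, edgeR adjusted p = 0.0309). For nas-15, nas-30 and nas-8 the torY call was lost only without BW25113 replicate 2, and the yccU call in each omission except that of yccU replicate 2. nas-8 overlaps C34D4.10 on the opposite strand by 11 bp, and as the strandedness of the libraries is unknown here, reads over such an overlap cannot be told apart.

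nas-27, nas-1 and nas-14 were called in torY alone, and their difference between torY and yccU did not pass its test (above). nas-27 (II, positions 1175925 to 1179323, minus strand) had 15.5, 6.80 and 12.8 CPM in torY libraries and 12.8, 3.33 and 11.9 CPM in yccU libraries, against 0.641, 0.368 and 1.86 CPM in BW25113 libraries. It was 3.59 in torY on the log2 scale (SE 0.98, edgeR adjusted p = 0.0233), with 3.27 in yccU (edgeR adjusted p = 0.0570). Its lowest library was crl replicate 1 with 0.0536 CPM, and the other mutants reached 8.88 CPM, which overlapped torY replicate 2. nas-1 (III, positions 13405804 to 13409292, plus strand) had 3.38, 2.40 and 3.24 CPM in torY libraries and 2.89, 0.777 and 2.48 CPM in yccU libraries, against 0.466, 0.0613 and 0.517 CPM in BW25113 libraries, for a log2 fold change of 3.07 in torY (SE 0.82, edgeR adjusted p = 0.0225) and 2.53 in yccU (edgeR adjusted p = 0.0677). nas-14 (IV, positions 13170541 to 13174144, plus strand) had 2.00, 1.35 and 2.41 CPM in torY libraries and 2.97, 0.666 and 2.14 CPM in yccU libraries, against 0.699, 0.306 and 0.413 CPM in BW25113 libraries. Its change was the smallest of the 8 rises, at 2.01 in torY (SE 0.63, edgeR adjusted p = 0.0367) and 2.02 in yccU (edgeR adjusted p = 0.0621). All 3 torY calls were lost without BW25113 replicate 1 or 2 or torY replicate 1 or 3, and those of nas-1 and nas-14 also without BW25113 replicate 3. All 3 were called in yccU without yccU replicate 2.

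**Figure D4:**
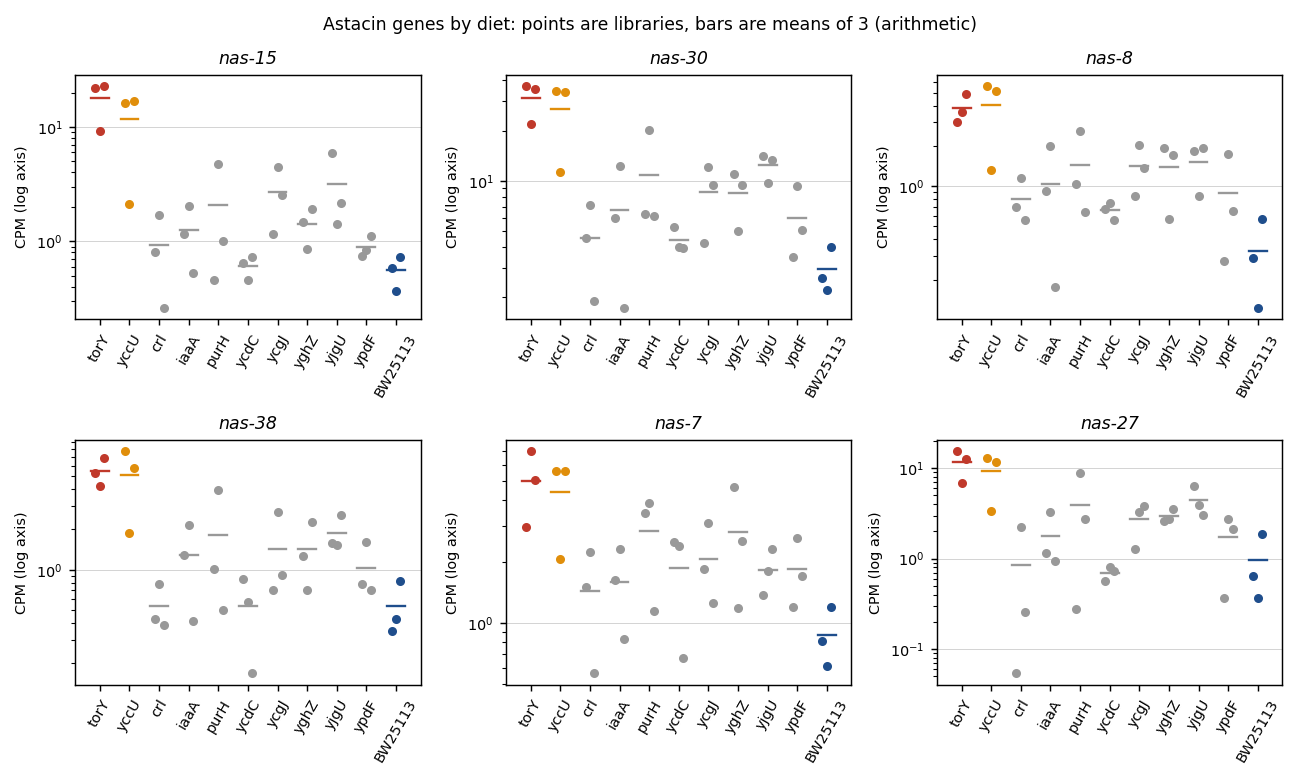
CPM on a log axis of 6 astacin genes in the 11 diets, per library (points) with the arithmetic mean of 3 (bars); torY is red, yccU orange, BW25113 blue and the other mutants grey. For nas-15, nas-30, nas-8 and nas-38 all 3 torY points lie above every grey and blue point, while 1 yccU point of each gene lies among the grey points.

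With all 33 libraries, edgeR called none of the remaining 18 tested members in any comparison. Under another setting or with 1 library left out, 6 of them (toh-1, nas-4, nas-9, nas-22, nas-23 and nas-33) were called at least once, in torY, in yccU or in the F test over diets, and the other 12 never were. toh-1 (III, positions 3804772 to 3809030, minus strand), a tolloid homolog, was nearest to the threshold among them in torY, with 36.5, 22.4 and 37.1 CPM in torY libraries, 33.5, 17.8 and 30.8 CPM in yccU libraries and 12.1, 11.4 and 12.9 CPM in BW25113 libraries. Its log2 fold change was 1.40 in torY (SE 0.48, edgeR adjusted p = 0.0501) and 1.17 in yccU (SE 0.48, edgeR adjusted p = 0.126), and all torY libraries were above the 27 libraries outside both mutants. It was called in torY without torY replicate 2, and without yccU replicate 2 it was 1.40 in yccU (edgeR adjusted p = 0.0664). nas-23 had log2 fold changes of 4.06 in torY (SE 1.58) and 4.50 in yccU (SE 1.55), but at 0.0204 CPM in BW25113 on average these rest on almost no reads. Without yccU replicate 2 it was called in yccU, at 5.02 (edgeR adjusted p = 0.0322). The log2 fold changes of the other 16 ran between -0.44 and 2.43 in torY and between -1.16 and 2.20 in yccU, with nas-3 lowest in torY and nas-31 lowest in yccU.

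In the other 8 mutants no astacin gene was called by edgeR, and neither was any of all genes (0%). At an unadjusted p under 0.05 there were 8 members in yjgU, 8 in purH, 4 in yghZ, 3 in ycgJ, 1 in iaaA and none in crl, ycdC and ypdF, where 6.49% of all genes passed in yjgU, 7.17% in purH, 6.71% in yghZ, 4.74% in ycgJ, 1.12% in iaaA, 1.02% in crl, 4.64% in ycdC and 1.32% in ypdF. DESeq2 on the same counts also called none. In yjgU 6 of the 8 were higher (nas-30, nas-15, nas-8, nas-33, nas-38 and nas-27) and 2 lower (nas-12 and hch-1). nas-30 in yjgU had 14.1, 9.71 and 13.3 CPM, all above the 3 BW25113 libraries, and its log2 fold change of 2.07 (SE 0.61) had an edgeR adjusted p of 0.735. hch-1 in yjgU had 5.00, 5.80 and 2.66 CPM, all below BW25113, with -2.49 (SE 1.20, edgeR adjusted p = 0.735). Apart from BW25113 in yjgU were 12 members above and 2 below, where 15.1% of all genes lay above, 10.2% below and 25.3% either way. Of the 29 molting cycle genes 1 lay above and 9 below BW25113 in yjgU, with sums of 201 to 311 CPM against 264 to 472 CPM. Of the 24 sperm genes 18 lay above and 0 below, and of the 20 embryo genes 0 lay above and 9 below. No gene of these lists was called in yjgU, and their part in the levels of the members was not tested. When the 6 libraries of yjgU and BW25113 were fitted alone, 5 members were called, 4 higher and 1 lower, with 4.44% of genes called. In purH the 8 members were all higher, though not evenly: nas-30 had 6.27, 20.2 and 6.14 CPM in purH replicates 1, 2 and 3, while hch-1 had 12.9, 1.18 and 4.36 CPM.

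An F test over the 11 diets called 5 of the 32 members, where 3.16% of all genes were called: nas-15 (edgeR adjusted p = 0.000815), nas-30 (0.00365), nas-38 (0.00779), nas-27 (0.0319) and nas-8 (0.0340). The gene nas-15 had the 3rd lowest p of all 14696 genes. hch-1 was not called there (edgeR adjusted p = 0.136), and its libraries varied widely within diets, from 0.355 to 4.89 CPM in yccU and from 11.2 to 39.5 CPM in BW25113. Unadjusted, 20.9% of all genes were under 0.05 in this test. The count was 3 without BW25113 replicate 1 or 2, torY replicate 1 or 3, yccU replicate 1 or 3, iaaA replicate 1, ycdC replicate 2 or yghZ replicate 2, and 8 without purH replicate 2 or yccU replicate 2.

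Likeness among the members was described by Pearson r of log2 CPM, over the 33 libraries and over the 27 outside torY and yccU. Values over the 27 are given because torY and yccU libraries can raise or lower a pooled value. nas-8 and nas-30 were the closest pair, with 0.919 over the 27 libraries and 0.950 over all 33. nas-15 and nas-30 had 0.863 over the 27 and nas-30 and nas-38 had 0.856. hch-1 ran the other way, with -0.805 against nas-30 over the 27 libraries and -0.896 over all 33. Ranked over all 33 only, hch-1 was the least like member for nas-30, nas-8, nas-15, nas-38, nas-7, nas-37 and dpy-31 among others. Only nas-3 came near to it, at 0.679 over the 27 and 0.614 over all 33.

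A second pair was nas-9 and toh-1, with 0.868 over the 27 libraries and 0.897 over all 33. With 12 intestine genes r was 0.871 for nas-9 and 0.870 for toh-1 over the 27 libraries, where nas-15 had 0.519 and nas-30 had 0.342. With 20 pharynx genes it was nearly as high, at 0.769 for nas-9 and 0.835 for toh-1 over the 27 libraries. Among the rising members, nas-1 had 0.358 with the intestine genes and 0.645 with the pharynx genes over the 27 libraries. There nas-1 also had 0.624 with the sperm genes, -0.628 with the embryo genes and -0.047 with the molting list. For the other rising members, r with the pharynx, sperm, embryo and molting lists is not given here. Over all 33, nas-9 had 0.893 with the intestine genes and 0.822 with the pharynx genes, while toh-1 had 0.884 with the intestine genes and 0.912 with the pharynx genes. None of the 12 intestine genes was called in torY or yccU. For dpy-31, r with the embryo, sperm, molting, pharynx and intestine lists lay between -0.0566 and 0.126 over the 27 libraries. Over all 33 it was 0.630 with the molting list, 0.520 with the pharynx list and -0.485 with the embryo list. All these values come from libraries that share diets and scaling, and none was tested.

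**Figure D5:**
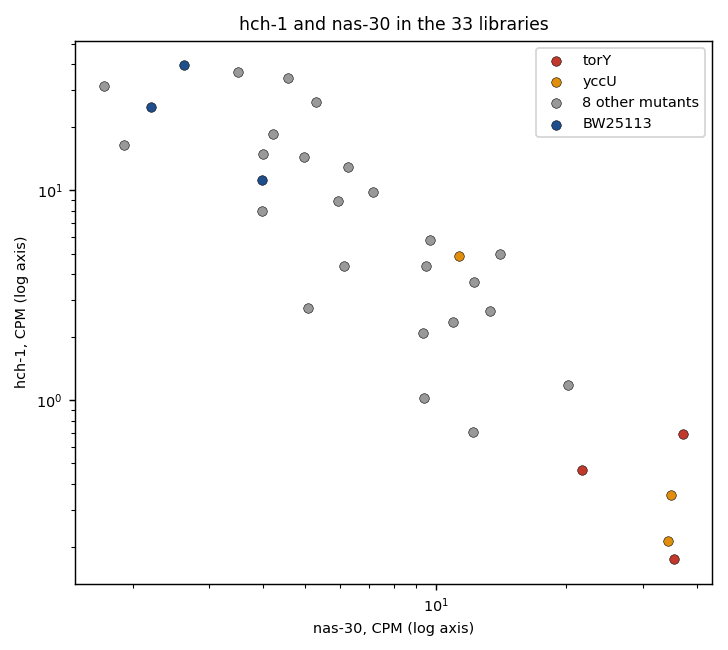
CPM of hch-1 against CPM of nas-30 in each of the 33 libraries, both on log axes, coloured by diet. Libraries with high nas-30 have low hch-1: the 3 torY libraries and yccU replicates 1 and 3 are at the lower right, the BW25113 libraries at the upper left, and yccU replicate 2 lies among the other mutants.

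Other secreted or surface metalloproteases were taken as a wider comparison: of 35 tested, 8 were called higher in torY and 2 in yccU, or 9 of 36 in yccU without its replicate 2, and none was called lower. They included the ADAMTS gene adt-1 with log2 fold changes of 2.80 in torY (SE 0.66) and 2.52 in yccU (SE 0.65), the matrix metalloprotease gene zmp-2 with 2.69 in torY (SE 0.76), and the neprilysin genes nep-13 with 3.87 in torY (SE 1.10) and nep-6 with 5.23 in torY and 5.86 in yccU. The level of nep-6 was very low, at 0.893 ± 0.39 CPM in torY and 1.39 ± 0.93 CPM in yccU, against 0.0172 ± 0.030 CPM in BW25113 (SD, n = 3 each). The median log2 fold change of the 35 was 0.81 in torY and 0.65 in yccU, below the astacin medians of 1.39 and 1.25, a difference that was not tested. By sign, 6 of the 35 were lower in torY and 8 in yccU, and 2 and 3 genes lay wholly below BW25113.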

How the data were processed

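Per the file headers, each library's deposited table holds an expected count (estimated read count) and a TPM value per gene symbol. The submitters' processing notes name HISAT, StringTie and Bowtie2, without roles, and the build WBcel235. Which tool counted, with which annotation and strand setting, is not given in the sources used here. Of the deposited expected counts, 7.78% to 10.0% per library were not whole and were rounded. Deposited TPM was used for levels between genes and, as log2(TPM + 1), in 1 alternative fit.

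edgeR 4.0.16 (R 4.3.3) fitted all 33 libraries in 1 model by diet after filterByExpr, which kept 14696 genes and left out 4115, with TMM scaling (factors 0.661 to 1.90). Contrasts, an F test and Benjamini-Hochberg adjustment ran over all genes. SE is the absolute log2 fold change over the square root of F. Likeness used log2 CPM with a prior count of 2. The fit was tried on simulated counts with the same dispersion for every gene and no outlying library. That trial does not speak of how far the calls rest on single libraries. Alternatives were limma 3.58.1, DESeq2 1.42.0, relative log size factors, no filter, a replicate block, 6 libraries alone and each library left out. No replicate pair looked like 1 library deposited more than once (smallest chi-square per degree of freedom 15.7 over 33 pairs).

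Members follow from symbols alone. Values in every library are given for members called in any test and for 8 members with a described role or type, others by range and count, and up to 4 genes of each other list. The family was taken up, and the lists were chosen, with earlier results of these data known. Same-numbered libraries deviated together, with every correlation over 0.1, only in yghZ against BW25113 (0.360, 0.311 and 0.389), where the replicate block left the count of calls at 0. Positions are from the Ensembl release 115 annotation of WBcel235.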

Additional observations from a re-analysis of the deposited data

How the results depend on the processing

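In the 8 comparisons other than torY and yccU, no member was called under any alternative except in yjgU, where the 6 libraries alone gave 5. In torY, where 9 were called, DESeq2 called 16 and the 6 libraries alone 17 (with 29.5% of genes called), and in yccU, where 5 were called, they called 12 and 10 (13% of genes). The DESeq2 counts in torY and in yccU include nas-23, which passed the filter only with the help of those libraries. In the F test, where 5 were called, DESeq2 called 12, no filter on low counts 3 and limma on log2(TPM + 1) called 1. Leaving out 1 library gave 0 to 10 in torY, 0 to 13 in yccU, 3 to 8 in the F test and 0 to 0 elsewhere. Of all genes, 0 to 2118 were called in torY and 0 to 2177 in yccU under the same omissions. With the replicate block 12 were called in torY, 8 in yccU and 6 in the F test. The share of all genes called under DESeq2, limma, no filter and the replicate block is not given here. Those counts therefore do not show a change particular to the family. Correlations of the deviations of same-numbered libraries lay between -0.442 and 0.389 in all. They compare each mutant with BW25113 only, so whether same-numbered libraries share anything beyond a number was not tested. Of the 14 members named for a call or for a described role or type, only nas-39 in torY changed sign, within a range of -0.115 to 0.592 over the omissions. Of the other 18, nas-20, nas-28 and nas-31 changed sign in torY, and nas-3, nas-5, nas-20, nas-21, nas-28 and nas-32 in yccU, under at least 1 alternative or omission, and none of these was called. On log2(TPM + 1), nas-7 and nas-14 in torY and nas-7 in yccU missed the threshold (limma adjusted p = 0.0525, 0.0524 and 0.108). The same fit called nas-6 and toh-1 in torY and nas-27 in yccU, which the main fit did not. That scale by construction understates the change of low genes, and its part in the lost calls was not tested. Without a filter nas-7 in yccU also missed the threshold (edgeR adjusted p = 0.0667). The causes of these differences were not tested. What depth limits was not tested. Over the 33 libraries hch-1 had 7808 counts and dpy-31 had 8295. In torY replicates 1, 2 and 3 hch-1 had only 10, 12 and 4 counts, where dpy-31 had 197, 281 and 346. The SE in torY was 1.46 for hch-1 and 0.25 for dpy-31.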
